A study of Mus musculus with 6 samples.

Results

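The 9 genes described here carry the Hedgehog signal from the cell surface to the nucleus: the receptor Ptch1, the ligand-binding membrane protein Hhip, the co-receptors Boc and Gas1, the transducer Smo, the cytoplasmic inhibitor Sufu and the transcription factors Gli1, Gli2 and Gli3. They were taken by gene symbol from a table of 23337 genes, and all 9 were found in it. RNA had been sequenced from tumour cells of basal cell carcinomas in the ear epidermis of mice. The Ko group held 3 libraries of genotype R26-SmoM2/+ Yapfl/fl K14CreER and the Wt group 3 libraries of genotype R26-SmoM2/+ K14CreER. All 6 libraries came from mice given tamoxifen at 4 weeks of age and are labelled as taken 6 weeks later. Every tumour, Wt tumours included, therefore carried SmoM2, an oncogenic form of Smoothened that signals without ligand, and the K14CreER driver limits recombination of both SmoM2 and floxed Yap to cells of the Krt14-expressing lineage. The comparison asked which transcripts of the Hedgehog route differed when Yap, the Hippo-regulated transcriptional co-activator, was deleted in such tumours.

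In the resting state PTCH1 holds SMO inactive, SUFU and proteolytic processing keep the GLI factors repressed, and little Gli1 is made. When a Hedgehog ligand binds PTCH1, or when SMO is mutated as in SmoM2, SMO moves into the primary cilium, GLI2 becomes an activator, and Gli1, Ptch1 and Hhip are transcribed as targets. PTCH1 and HHIP act as negative feedback on ligand, while BOC, GAS1 and CDON help PTCH1 to bind it. Basal cell carcinoma is the skin tumour known for this route, most often through loss of PTCH1 or mutation of SMO.

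The labels and the tissue were checked first. Yap1 had 591, 773 and 1764 normalized counts in Ko libraries 1 to 3, against 5765, 6004 and 5573 in Wt libraries 1 to 3, so the highest residual Yap1 was in Ko library 3. Normalized counts are read counts divided by 1 size factor per library. Reads per library ran from 15405490 to 25260431. The summed level of 7 basal keratinocyte markers was 545004 to 567227 normalized counts in Ko and 485491 to 695051 in Wt. Single markers went different ways within this sum. Among the Ko libraries, library 3 was highest for Krt14, Itga6 and Itgb4 and lowest for Krt5, Krt15, Trp63 and Col17a1. The summed level of 7 immune markers was 395 to 633 normalized counts in Ko and 202 to 497 in Wt, nearly all of it Cd74 and Cd68. The other 5, among them the pan-leukocyte marker Ptprc, did not exceed 10 in any library. The summed level of 7 fibroblast markers was 1637 to 7188 in Ko and 3248 to 9427 in Wt, most of it Dcn. Of these markers, the fibroblast receptor gene Pdgfra lay at 14.8 to 32.9 in Ko and 18.5 to 34.5 in Wt. The title codes of replicates 1 and 2 start with DM22 in both groups, those of replicate 3 with DM24, and these 2 sets are called the code series. Xist had 58654 normalized counts in Ko library 3 and 59594 in Wt library 3, and 8.62 to 15.1 in the DM22 libraries, so sex, depth and whatever else the codes mark cannot be told apart. The summed level of 6 suprabasal keratinocyte markers was 24848 to 103378 in Ko and 28380 to 45749 in Wt, with the highest value in Ko library 3. In bulk RNA, fewer cells of a type and less RNA per cell cannot be told apart.

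No member passed the test between Ko and Wt tumours. The test was limma, a linear model with moderated variances, on log2(normalized count + 1) over the 13671 genes whose mean reached 10 normalized counts, with Benjamini-Hochberg adjustment and a threshold of 0.05. It called 0 of the 9 members and 0% of all genes tested, with 0 of 9 members and 759 of 13671 genes at an unadjusted p under 0.05. The deleted gene Yap1 was also not called, at a log2 difference of −2.63 without overlap of the groups (limma, adjusted p = 0.517). A gene that was not called was therefore not shown to be unchanged. All 9 members passed the filter on low values. The groups overlapped for each of the 9, against 11.0% of all genes tested whose groups did not overlap. Of the 9 members, 7 had a log2 difference below 0 and their median was −0.09, against 51.0% of all genes below 0 and a median of −0.0034. DESeq2 on the recovered read counts likewise called 0 members (0.527% of all genes), though it called Yap1 (DESeq2, adjusted p = 1.1e-07). The edgeR test called 0 members and 0% of all genes, with 0 members and 765 genes at an unadjusted p under 0.05. Levels and differences are given per member below, in the order of the route. Where no adjusted p stands beside a member, it lay between 0.933 and 1.0 in limma.

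**Figure D1:**
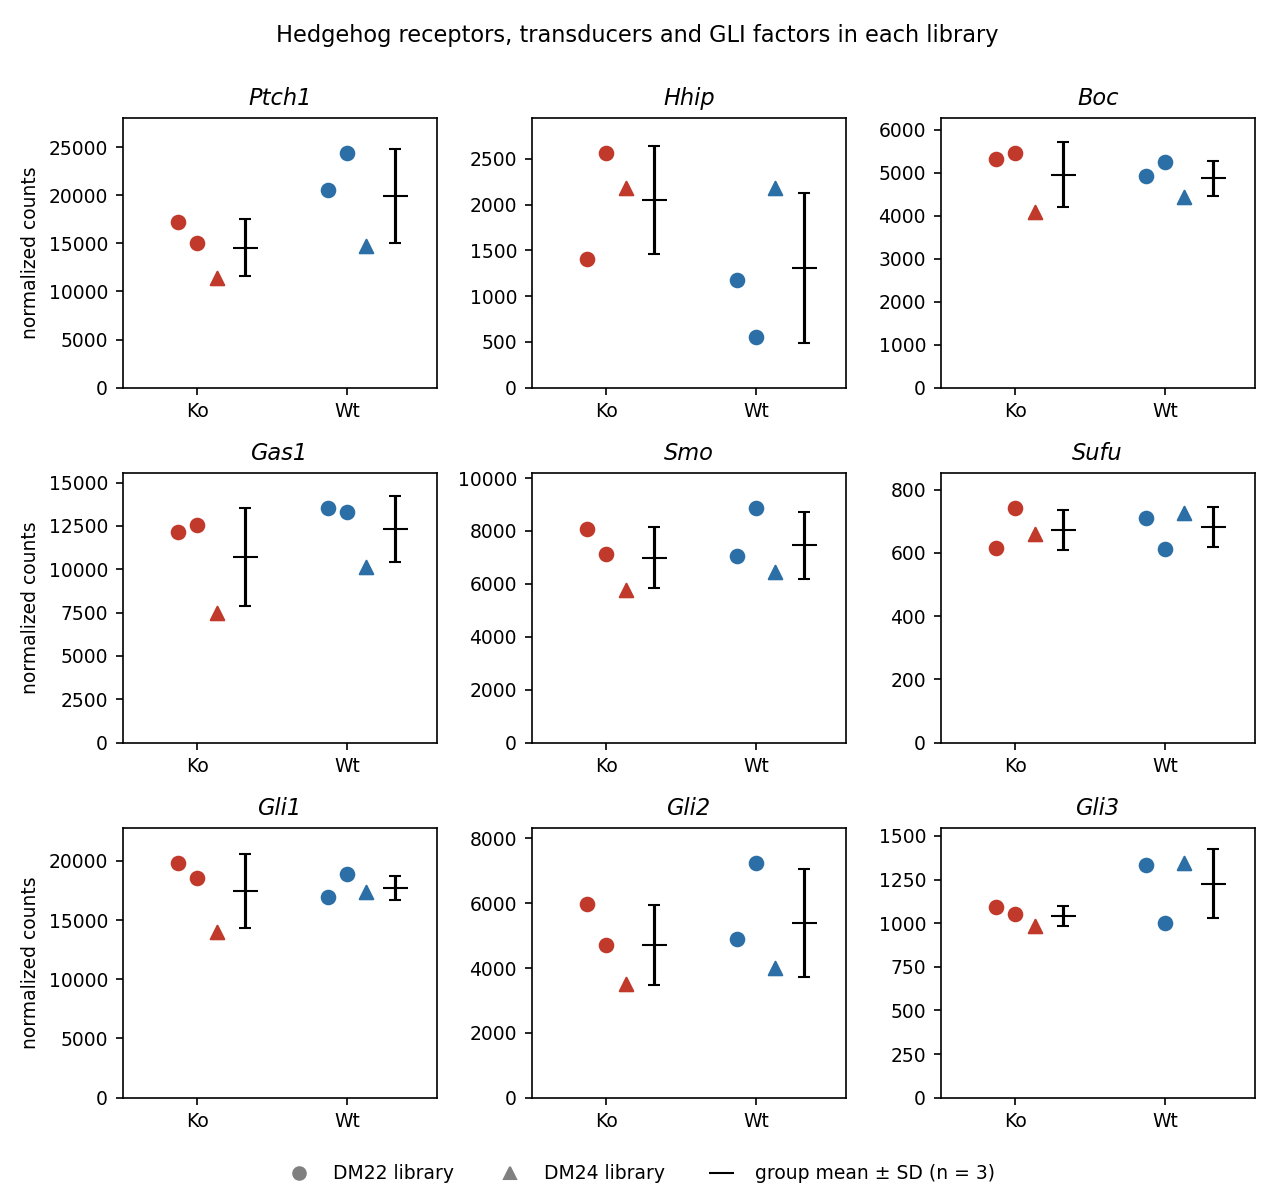
Normalized counts (vertical axes, from 0) of the 9 members in the 3 Ko and 3 Wt libraries, with circles for DM22 and triangles for DM24 libraries and the group mean ± SD (n = 3) at the right of each group. The Ko and Wt points overlap in every panel, and within Ptch1 and Gas1 the Ko circles lie below the Wt circles and the Ko triangle below the Wt triangle.

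Ptch1, the Hedgehog receptor and a direct GLI target, was the member with the largest difference below Wt. It lies on chromosome 13 from 63508328 to 63573598 on the minus strand (GRCm38, GENCODE M21, protein coding). Ptch1 had 17218, 15070 and 11408 normalized counts in Ko libraries 1 to 3, against 20592, 24419 and 14702 in Wt libraries 1 to 3. The groups overlapped because Wt library 3 lay below Ko libraries 1 and 2, while within each code series every Ko library was below every Wt library. The means were 14565 ± 2938 in Ko and 19904 ± 4895 in Wt (SD, n = 3 each). The log2 difference was −0.44 with a 95% interval of −1.0 to 0.12, so a level between 0.499 and 1.09 times that of Wt was not distinguished (limma, adjusted p = 0.933). The difference was −0.48 among the DM22 libraries and −0.37 between the DM24 libraries. It was −0.27 without Ko library 3 and −0.28 without Wt library 2, but these limma fits left the code series unbalanced between the groups. DESeq2 with the series as a term gave −0.48 and −0.36 for the same omissions. With either DM24 library left out, the series term takes up the remaining one, so such an estimate is that of the DM22 libraries.

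The Ptch1 call depended on the tool and on the terms in the model. With the code series as a term, DESeq2 called Ptch1 lower (adjusted p = 0.00529) in a fit that called 2.19% of all genes and 1.46% lower. With the replicate number as a block, DESeq2 gave an adjusted p of 0.0481, calling 1.24% of all genes, 0.834% lower. In the DM22 libraries alone it gave 0.0407, calling 1.89% of all genes, 1.08% lower. Ptch1 was the single member called in each of these 3 fits. Without a term DESeq2 gave an adjusted p of 0.842. With the block, neither limma nor edgeR called Ptch1 (limma adjusted p = 0.397, edgeR adjusted p = 0.409). Nor did they with the series term (limma adjusted p = 0.246, edgeR adjusted p = 0.259). The limma difference was −0.44 in each of these fits. Its interval lay below 0, at −0.73 to −0.15 with the block (limma, unadjusted p = 0.0108). With the series term it was −0.68 to −0.20 (limma, unadjusted p = 0.00405). In edgeR the difference was −0.43 with the block (unadjusted p = 0.0127) and with the series term (unadjusted p = 0.00475). Limma with the series term gave 1546 of 13671 genes an unadjusted p under 0.05. In the DESeq2 fit with the series, the call was lost without Ko replicate 2 (adjusted p = 0.366) and without Wt replicate 3 (adjusted p = 0.0508).

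The level of Ptch1 also differed between the code series. In limma with genotype in the model, DM24 minus DM22 was −0.55 on the log2 scale (adjusted p = 0.0393). It was −0.50 among the Ko libraries and −0.61 among the Wt libraries. Gas1 was the other member called between the series, so 2 of 9 were called, against 6.75% of all genes.

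Hhip, a membrane protein that binds and sequesters Hedgehog ligands, was the member with the widest spread. It lies on chromosome 8 from 79965851 to 80058006 on the minus strand. Hhip had 1407, 2567 and 2180 normalized counts in Ko libraries 1 to 3, against 1182, 556 and 2181 in Wt libraries 1 to 3. Both DM22 Ko libraries were above both DM22 Wt libraries, and the DM24 libraries had nearly the same level. The means were 2051 ± 590 in Ko and 1306 ± 820 in Wt (SD, n = 3 each). The log2 difference was 0.82 with a 95% interval of −0.41 to 2.04 (limma, adjusted p = 0.961), 1.23 among the DM22 libraries and −0.0008 between the DM24 libraries. Hhip was not called in any of the fits run, and Wt library 2 set much of the value: without it the log2 difference was 0.31, and without Wt library 3 it was 1.29. DESeq2 with the series as a term gave 0.42 and 1.19 for the same omissions. The interaction of genotype and code series was −1.23 for Hhip (limma, adjusted p = 0.867).

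The sequences before the start sites of Ptch1 and Hhip, the members with the largest differences, and of Smo, the member whose window held a motif match, are shown as 250 bases on the gene's strand, from RefSeq on GRCm38.p6. The Ptch1 window is chr13:63565736-63565985 on the minus strand, inside the longer GENCODE gene model but free of its exons. The Hhip window is chr8:80058009-80058258 on the minus strand and the Smo window chr6:29735247-29735496 on the plus strand. Capitals mark the TEAD match.
Ptch1: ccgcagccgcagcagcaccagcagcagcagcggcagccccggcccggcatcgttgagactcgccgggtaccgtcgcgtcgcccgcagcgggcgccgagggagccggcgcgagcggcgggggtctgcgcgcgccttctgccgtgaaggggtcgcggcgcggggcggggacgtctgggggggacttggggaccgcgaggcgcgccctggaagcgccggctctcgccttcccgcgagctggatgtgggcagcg
Hhip: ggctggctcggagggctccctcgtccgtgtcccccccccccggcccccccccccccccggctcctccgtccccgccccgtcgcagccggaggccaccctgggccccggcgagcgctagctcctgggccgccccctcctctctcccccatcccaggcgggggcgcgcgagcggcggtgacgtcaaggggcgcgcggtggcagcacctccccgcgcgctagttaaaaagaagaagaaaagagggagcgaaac
Smo: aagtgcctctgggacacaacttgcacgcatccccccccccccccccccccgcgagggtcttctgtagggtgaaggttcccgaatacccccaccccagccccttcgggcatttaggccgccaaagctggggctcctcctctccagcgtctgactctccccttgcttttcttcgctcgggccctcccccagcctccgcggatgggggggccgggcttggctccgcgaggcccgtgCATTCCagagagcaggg

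RefSeq promoters were matched for 7 of the 9 members, Gli2, Gli3, Ptch1, Hhip, Smo, Sufu and Gas1. Windows of 300 bases, reaching 50 bases past the start, were searched on both strands. The GLI motif GACCACCCA was found in 0 of the 7 windows, against 0.253% of 32851 promoters, and its part CCACCCA, which overlaps it, in 0 of 7, against 9.3%. The TEAD motif GGAATG was found in 1, the Smo window above, as its reverse complement, against 14.7% of promoters. The AP-1 motif TGANTCA was found in 0, against 7.81%. A match is a run of letters and not a measured site. Over the 250 bases before the start, all 7 members had a GC content above the median of 52.4% over all promoters. It ran from 54% in Sufu to 76% in Hhip and 78.4% in Ptch1.

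Boc, an immunoglobulin-family co-receptor that presents ligand to PTCH1, was among the members with the narrowest intervals. It lies on chromosome 16 from 44485049 to 44558897 on the minus strand. Boc had 5308, 5462 and 4088 normalized counts in Ko libraries 1 to 3, against 4920, 5248 and 4423 in Wt libraries 1 to 3. The DM24 library was the lowest of each group, and the Wt range lay within the Ko range. Boc differed by 0.02 on the log2 scale, with a 95% interval of −0.30 to 0.34, which spans 0.81 to 1.26 times the Wt level.

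Gas1, a GPI-anchored co-receptor made from a single exon, lies on chromosome 13 from 60174405 to 60177365 on the minus strand. Gas1 had 12148, 12533 and 7473 normalized counts in Ko libraries 1 to 3, against 13547, 13280 and 10154 in Wt libraries 1 to 3. As for Ptch1, every Ko library was below every Wt library within each code series, a pattern that 14.4% of all genes showed. Gas1 differed by −0.23 on the log2 scale, with a 95% interval of −0.79 to 0.33, and this difference lay at −0.12 among the DM22 libraries and −0.44 between the DM24 libraries. Without Ko library 3 it was 0.01, in a fit that left a DM24 library in Wt alone. DESeq2 with the series as a term gave −0.12 for this omission, which rests on the DM22 libraries alone. The series difference, DM24 minus DM22, was −0.56 (limma with genotype, adjusted p = 0.0292). The antisense gene Gm48488 covers 19.9% of the Gas1 exon, and reads from it cannot be told apart in libraries that do not mark strand.

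Gas1 and other Hedgehog receptors are also expressed by fibroblasts, so the fibroblast markers are given beside them. Pdgfra had at most 34.5 normalized counts in any library. The 7 fibroblast markers summed to 7188, 6182 and 1637 in Ko libraries 1 to 3 and to 5402, 9427 and 3248 in Wt libraries 1 to 3, lowest in the DM24 library of each group, as Gas1 was. Dcn carried most of this sum, with 7060, 5931 and 1127 in Ko and 5275, 9253 and 2193 in Wt. Without Dcn the other 6 summed to 128, 251 and 511 in Ko libraries 1 to 3 and to 127, 174 and 1055 in Wt libraries 1 to 3. The sum of these 6 went the other way and was highest in the DM24 library of each group, although Pdgfra alone was highest in Wt library 2. The part of either in the Gas1 values was not tested.

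Smo, the seven-pass transducer that PTCH1 restrains, had overlapping levels in the groups. It lies on chromosome 6 from 29735503 to 29761365 on the plus strand, and the SmoM2 allele is a Smo transgene at the Rosa26 locus, so the reads counted here may come from the endogenous gene, the transgene or both. Smo had 8088, 7131 and 5770 normalized counts in Ko libraries 1 to 3, against 7061, 8878 and 6446 in Wt libraries 1 to 3. The DM24 library was the lowest of each group and the groups overlapped. For Smo the log2 difference was −0.09 with a 95% interval of −0.50 to 0.31, which spans 0.707 to 1.24 times the Wt level. Gt(ROSA)26Sor, the transcript of the locus that carries the transgene, had 906, 863 and 553 normalized counts in Ko libraries 1 to 3 and 932, 840 and 615 in Wt libraries 1 to 3, a log2 difference of −0.05 with an SE of 0.24.

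Sufu, which binds GLI factors in the cytoplasm and holds them inactive, had the smallest standard error of the 9. It lies on chromosome 19 from 46396896 to 46488804 on the plus strand. Sufu had 616, 743 and 659 normalized counts in Ko libraries 1 to 3, against 710, 611 and 726 in Wt libraries 1 to 3. The group ranges lay over each other almost entirely. Sufu differed by −0.02 on the log2 scale, with an SE of 0.11 and a 95% interval of −0.29 to 0.25, which spans 0.818 to 1.19 times the Wt level.

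Gli1, the GLI factor that is itself a Hedgehog target and the usual readout of the route, was high in every library. It lies on chromosome 10 from 127329882 to 127341974 on the minus strand. Gli1 had 19838, 18563 and 13955 normalized counts in Ko libraries 1 to 3, against 16931, 18847 and 17325 in Wt libraries 1 to 3. The 3 Wt libraries lay within the range of the Ko libraries, whose lowest was Ko library 3. For Gli1 the log2 difference was −0.04 with a 95% interval of −0.39 to 0.32, which spans 0.764 to 1.25 times the Wt level. Its sign was not fixed: it was 0.10 among the DM22 libraries, −0.31 between the DM24 libraries and 0.03 after quantile normalization. An antisense gene, Gm47200, covers 5.31% of the Gli1 exons.

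Gli2, the main activator at the start of the response, lies on chromosome 1 from 118834132 to 119053619 on the minus strand. Gli2 had 5971, 4701 and 3505 normalized counts in Ko libraries 1 to 3, against 4884, 7250 and 4015 in Wt libraries 1 to 3. The highest value was Wt library 2 and the lowest Ko library 3, with the other 4 libraries between them. Gli2 differed by −0.18 on the log2 scale, with a 95% interval of −0.84 to 0.49, and it was 0.06 without Wt library 2 and 0.02 without Ko library 3. Each omission left the code series unbalanced between the groups. DESeq2 with the series as a term gave −0.01 and −0.19 for the same omissions.

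Gli3, which acts mainly as the repressor of the family, lies on chromosome 13 from 15463235 to 15730026 on the plus strand. Gli3 had 1092, 1050 and 981 normalized counts in Ko libraries 1 to 3, against 1336, 999 and 1346 in Wt libraries 1 to 3. The Ko libraries lay close together, and Wt library 2 fell among them. For Gli3 the log2 difference was −0.22 with a 95% interval of −0.54 to 0.10 (limma, adjusted p = 0.946), and its value stayed below 0 in each alternative fit, from −0.37 to −0.11.

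**Figure D2:**
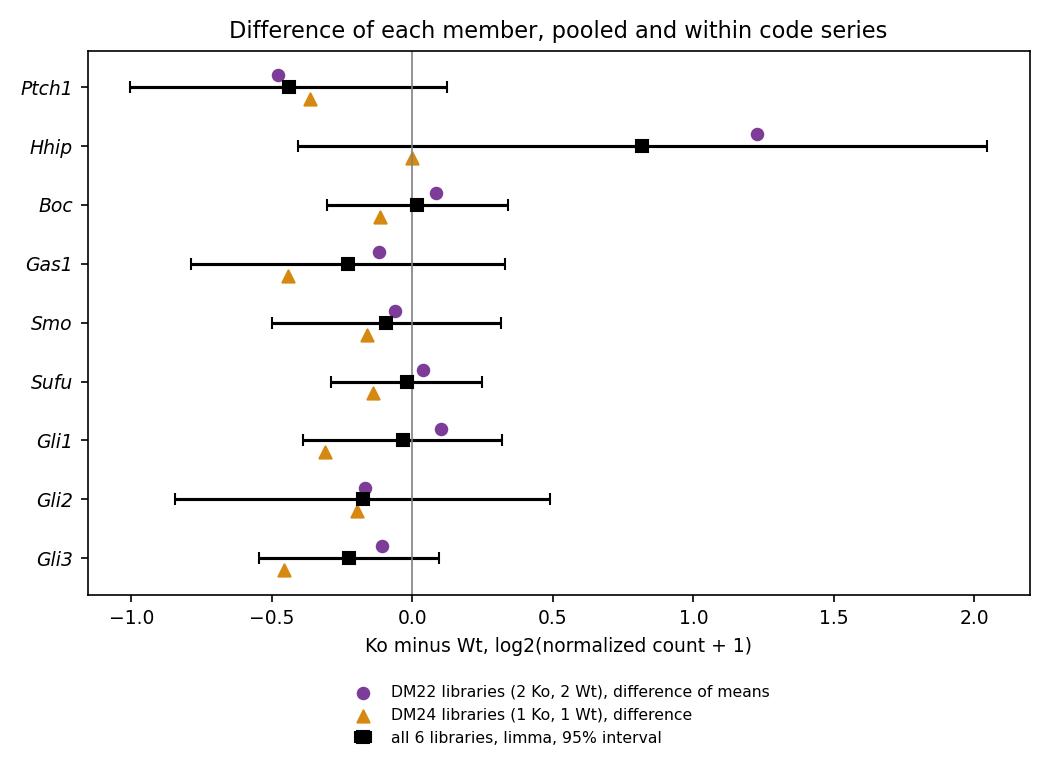
Ko minus Wt difference of each member on the log2(normalized count + 1) scale (horizontal axis), with squares and bars for the limma estimate and 95% interval over all 6 libraries, circles for the 4 DM22 libraries and triangles for the 2 DM24 libraries. Every interval crosses 0, the Ptch1 circle and triangle lie on the same side at −0.48 and −0.37, and those of Hhip are far apart at 1.23 and −0.0008.

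Levels of different members were compared per length, as reads per kilobase of merged exons per 1000000 reads (RPKM). Gas1 and Gli1 stood highest, at 177 ± 42.2 and 171 ± 26.1 RPKM in Ko, against 197 ± 23.2 and 168 ± 7.63 in Wt (SD, n = 3 each). Their ranges overlapped, so their order was not resolved. Smo, Boc and Ptch1 followed at 60.9 ± 8.73, 54.5 ± 6.82 and 50.2 ± 8.97 RPKM in Ko, and at 62.9 ± 8.16, 51.9 ± 2.17 and 66.3 ± 13.6 in Wt. The Ko ranges of these 3 overlapped. In Wt, each Smo value lay above each Boc value, and the Ptch1 range overlapped both. Gli2 came next, at 33.6 ± 8.09 RPKM in Ko and 37.0 ± 10.02 in Wt. Hhip, Gli3 and Sufu were lowest, at 11.1 ± 3.21, 5.33 ± 0.161 and 4.29 ± 0.392 RPKM in Ko, and at 6.98 ± 4.65, 6.11 ± 1.19 and 4.23 ± 0.548 in Wt. With the longest transcript as the length, chosen after the data were seen, Gli1 stood above Gas1. Smo, Ptch1 and Boc were then at 90.7, 68.6 and 54.5 RPKM in Ko, and at 93.5, 90.5 and 51.9 in Wt. Hhip, Gli3 and Sufu still held the last 3 places, with Sufu at 7.30 and Gli3 at 6.25 RPKM in Ko. The order of the last 3, and that of Ptch1 and Boc in Ko, therefore depended on the length used.

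Within the GLI family the shares of the 3 factors overlapped between the groups. Gli1 made up 81.5% ± 1.2 of the summed RPKM of the family in Ko and 79.7% ± 3.12 in Wt (SD, n = 3 each). Gli2 made up 15.9% ± 1.43 in Ko and 17.4% ± 3.77 in Wt. Gli3 made up 2.58% ± 0.376 in Ko and 2.91% ± 0.697 in Wt. Gli1 held the largest share in each library, from 80.2% to 82.4% in Ko and from 76.5% to 82.7% in Wt.

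**Figure D3:**
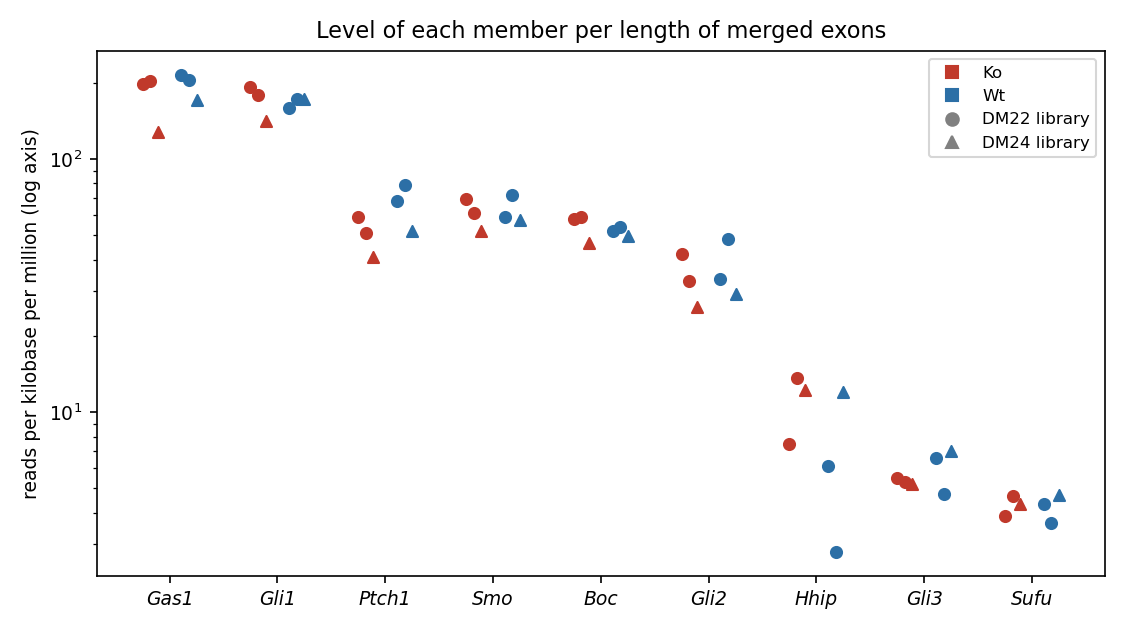
Level of each member in every library as RPKM (reads per kilobase of merged exons per 1000000 reads, vertical log axis), Ko points left of Wt points, with circles for DM22 and triangles for DM24 libraries. Gas1 and Gli1 lie above 100 in each library, and Gli3 and Sufu below 10.

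The members were also placed by their pattern over the 6 libraries, as the root mean square difference of log2 values centred on each gene's mean. Among themselves, Boc was nearest to Gli1 (0.08), Gli1 nearest to Smo (0.11), Smo nearest to Gli2 (0.15), and Gli2 nearest to Ptch1 (0.17). Hhip stood apart, with its nearest member, Sufu, at 0.68. Among 11085 other genes with a mean of at least 50, the nearest to Ptch1 were Fcgrt, an Fc receptor gene, at 0.04, Gprc5b at 0.05 and Plk3 at 0.06. The nearest to Hhip were Mdk, the growth factor midkine, Calml3, a calmodulin-like protein of keratinocytes, and Spo11, at 0.18, 0.19 and 0.19. The nearest to Gli1 were Ppm1m, Fan1 and Slc25a15, at 0.03, 0.04 and 0.04. The nearest to Gas1 were Actg1, Ypel5 and Sesn3, the nearest to Boc were Brd1, Specc1l and Fam20b, and the nearest to Smo were Hdgfrp3, Phlpp1 and Mcm9. For Gli2 they were Tns1, Capns2 and Plekhf2, for Gli3 Ppdpf, Tmem5 and Parp8, and for Sufu Unc119, Fbxw17 and Nfkb2. These likenesses over 6 libraries are a description.

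**Figure D4:**
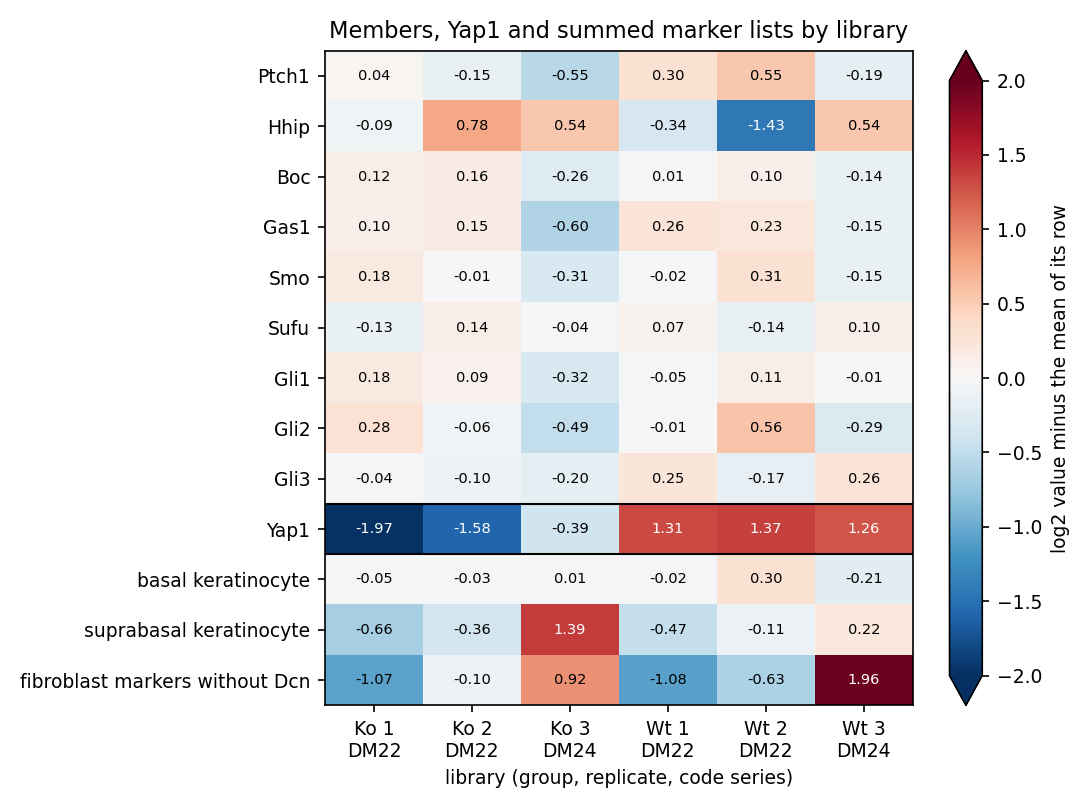
Log2 values of the 9 members, of Yap1 and of 3 summed marker lists in each library, minus the mean of their row (colour and printed number). Ptch1, Boc, Gas1, Smo, Gli1 and Gli2 are lowest in Ko library 3, at −0.26 to −0.60, where the suprabasal keratinocyte sum is highest at 1.39.

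Ko library 3 was the lowest library for 7 of the 9 members, Gli3 and the 6 just named, as the plot of centred values shows. The suprabasal sum in that library, 103378 normalized counts, was the highest of the 6. Its Yap1, at 1764 normalized counts, was the highest of the Ko group, against 591 and 773 in the other Ko libraries. The part of either in the member values was not tested. Krt1, Krt10 and Krtdap were highest in Ko library 3, at 54564, 30022 and 14116, while Ivl, Lor and Sbsn were highest in Wt library 3, and Lor was lowest of all in Ko library 3, at 44.3. Without Ko library 3 the median log2 difference of the 9 members was 0.02 and 3 lay below 0, but Ptch1 still lay at −0.27. That fit kept a DM24 library in Wt without a DM24 library in Ko. In the DM22 libraries alone, which are balanced, 5 of the 9 lay below 0 and the median was −0.06 (limma). Between the DM24 libraries each member lay below 0, from −0.46 for Gli3 to −0.0008 for Hhip.

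Ligand transcripts were at or near the detection limit or low in both groups. Shh, the ligand of the hair follicle placode, had 0, 0.824 and 2.53 normalized counts in Ko libraries 1 to 3 and 0, 0 and 2.60 in Wt libraries 1 to 3. For a library with 0 reads the limit of detection is 3 reads, or 2.47 to 3.90 normalized counts over the 6 libraries, which counts sampling error alone. Ihh ranged from 2.68 to 10.7 in Ko and from 1.30 to 2.52 in Wt, and lay below the filter on low values. Without that filter its log2 difference was 1.16 (limma, adjusted p = 0.944). Dhh had 18, 18 and 5 normalized counts in Ko and 15, 1 and 38 in Wt, rounded to whole numbers, with no order between the groups.

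Among 57 other listed genes of the route in the table, 49 passed the filter on low values, and limma called 0 of them, with 5 at an unadjusted p under 0.05. DESeq2 and edgeR without a term also called 0 of the 49. Of the 49, 31 lay below 0 with a median of −0.042, and the groups of 6 did not overlap, against 51.0%, −0.0034 and 11.0% for all genes tested. The 27 genes of the cilium and of transduction had a median of −0.01 with 14 below 0. The 15 targets had a median of −0.25 with 12 below 0. Without Ko library 3, 20 of the 49 lay below 0 and the median was 0.063, in a fit that left a DM24 library in Wt alone. In the DM22 libraries alone, 28 of the 49 lay below 0 and the median was −0.013 (limma).

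Arrb1, a beta-arrestin known to associate with activated SMO, had 827, 873 and 698 normalized counts in Ko libraries 1 to 3, against 1326, 1188 and 964 in Wt libraries 1 to 3. Each Ko library lay below each Wt library. For Arrb1 the log2 difference was −0.53 with an SE of 0.15 (limma, adjusted p = 0.722). DESeq2 called Arrb1 lower with the series (adjusted p = 9.8e-05), with the block (adjusted p = 0.0166) and in the DM22 libraries alone (adjusted p = 0.0137), but not without a term (adjusted p = 0.168).

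Mycn, a MYC family oncogene and GLI target, had 1951, 1173 and 840 normalized counts in Ko libraries 1 to 3, against 2598, 1898 and 1468 in Wt libraries 1 to 3. The groups overlapped, with each Ko library below the Wt library of the same replicate number. Mycn differed by −0.64 on the log2 scale, with an SE of 0.35 (limma, adjusted p = 0.933), and DESeq2 called it lower with the block (adjusted p = 0.00204) but not with the series (adjusted p = 0.158).

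Sfrp1, a secreted Wnt antagonist, had 1900, 2560 and 2010 normalized counts in Ko libraries 1 to 3, against 1187, 1301 and 1957 in Wt libraries 1 to 3. The DM22 Ko libraries lay above the DM22 Wt libraries and the DM24 libraries were close. For Sfrp1 the log2 difference was 0.56 with an SE of 0.21 (limma, adjusted p = 0.885), and DESeq2 called Sfrp1 higher in the DM22 libraries alone (adjusted p = 0.00138) but did not call it with the block (adjusted p = 0.227) or with a series term (adjusted p = 0.146). Of these listed genes, DESeq2 called Arrb1 with the series, Arrb1 and Mycn with the block, and Arrb1 and Sfrp1 in the DM22 libraries.

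The remaining genes with the largest differences were not called in any of the fits run. On the log2 scale they were Hsd11b1 (−1.23), the kinase gene Stk36 (0.42), the cell cycle kinase gene Cdk6 (−0.40), the ciliary receptor gene Gpr161, a negative regulator of the route (−0.38), Disp1, which releases ligand from producing cells (−0.34), Snai2 (−0.33) and Efcab7 (−0.28). Cdk6 and Snai2 were below Wt in each Ko library, and Stk36 above.

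**Figure D5:**
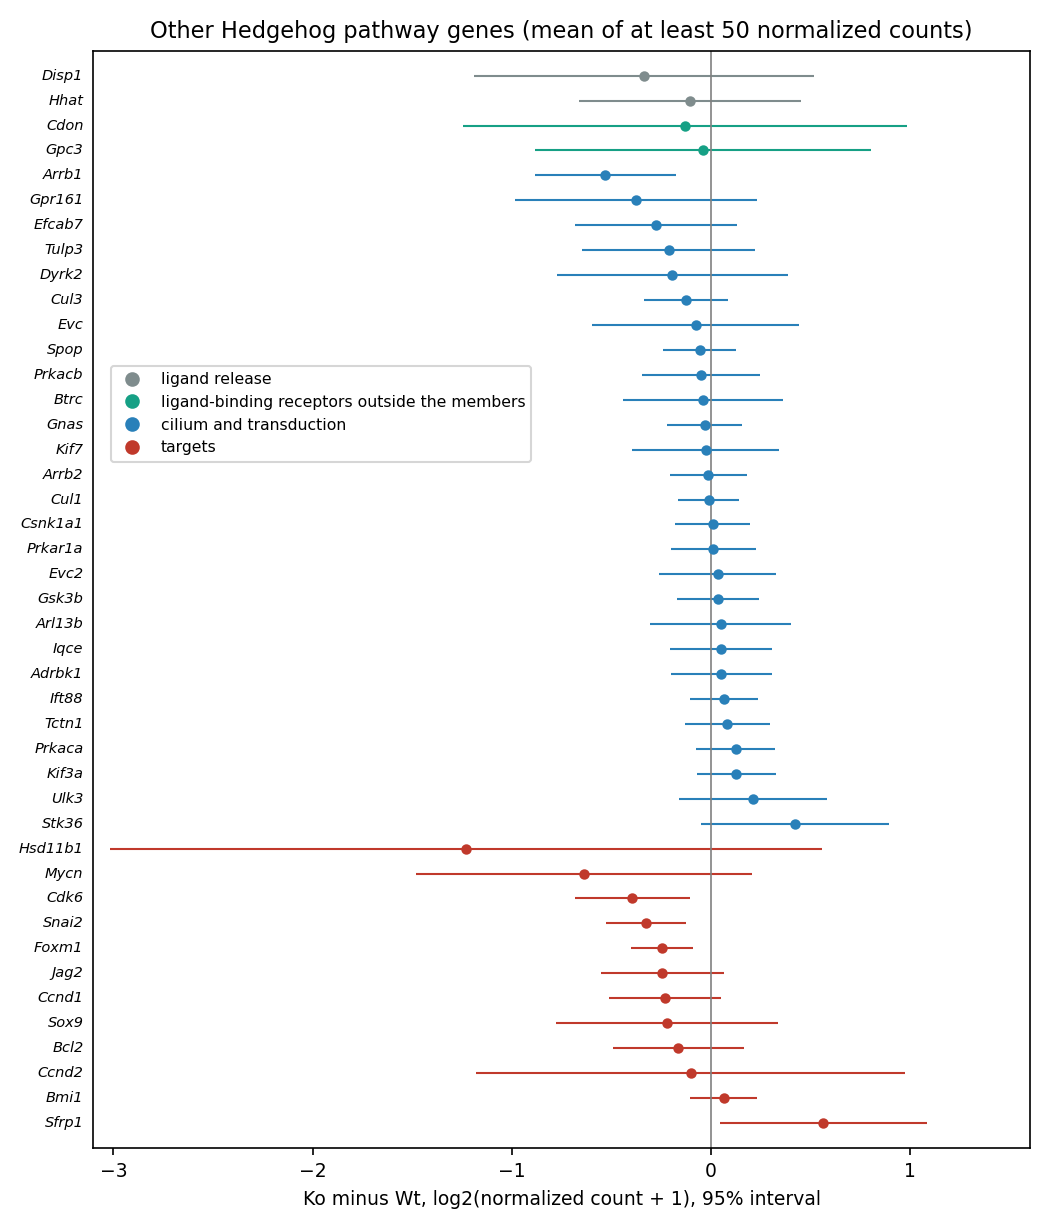
Ko minus Wt difference on the log2(normalized count + 1) scale with its 95% limma interval (horizontal axis) for the 43 other Hedgehog genes averaging 50 or more normalized counts, 1 row per gene, coloured by role. Most genes of the cilium and of transduction gather near 0, but Arrb1 lies at −0.53, Gpr161 at −0.38 and Stk36 at 0.42. Most targets lie left of 0, with Sfrp1 at 0.56 on the right.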

How the data were processed

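The authors deposited 1 table of 23337 genes in 6 libraries, holding a signal: the read count of each gene over the size factor of its library. On test, 100% of values were whole multiples of 1 step within each library (tolerance 0.001 reads). Per the submitters' processing notes, STAR 2.5, DESeq2 1.18.1 and builds mm10 and GRCm38 were used. The sources used here do not give the counting tool, annotation or strand setting. Per the labels' protocols the library kit was TruSeq RNA v2, which does not mark strand. The labels do not say whether libraries came from separate mice, so p-values measure the spread between libraries, which may be technical.

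Genes with a mean of at least 10 were tested with limma 3.58.1 (R 4.3.3; trend, robust) on log2(normalized count + 1), which understates changes of low genes. Tests were two-sided, with Benjamini-Hochberg adjustment over all 13671 genes. The reads recovered from these steps went into DESeq2 1.42.0, with the deposited size factors, and into the quasi-likelihood test of edgeR 4.0.16 with TMM. The fits were also run on simulated data without a code series effect, which cannot show how they behave where the series differ. An exact permutation test of 3 against 3 cannot go below p = 0.1, so none was run. Same-numbered libraries deviated together (correlations 0.333, 0.327 and 0.694), each above 0.1, so fits with the replicate number as a block were run as alternatives. The main limma fit, and DESeq2 and edgeR without a term, were not paired. Ko library 1 correlated more with Wt library 2 (0.505), so the pairing within DM22 rests on the labels' numbers.

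Named were the 9 members, Yap1, the 10 other Hedgehog genes with the largest difference at a mean of at least 50, and the 3 genes nearest to each member. The ligands and Gt(ROSA)26Sor were named after their values were seen. One listed Hedgehog gene is not reported here and is left out of the list counts. The members and lists were chosen with earlier results of these data known. Adrbk1 (Grk2) and Foxf1a (Foxf1) were matched through synonyms. Gene positions and lengths are from GENCODE M21.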

Additional observations from a re-analysis of the deposited data

How the results depend on the processing

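Of 198 recomputed member differences (22 alternatives for each of 9 members), 177 kept direction and side of the threshold, 3 passed it (Ptch1 in DESeq2 with the block, with the series and in DM22 alone) and 18 changed sign, each without passing it. Ptch1, Hhip and Gli3 changed sign in none of them, over −0.64 to −0.27, 0.31 to 1.29 and −0.37 to −0.11. Gli1 changed sign under quantile normalization (0.033) and in the DM22 libraries (0.10 by limma and 0.10 by DESeq2), and Sufu in the DM22 libraries (0.039 and 0.041). The cause was not tested. Leaving out 1 library gave −0.14 to 0.12 for Gli1, −0.37 to 0.060 for Gli2, −0.20 to 0.039 for Smo, −0.098 to 0.041 for Sufu, −0.059 to 0.15 for Boc and −0.36 to 0.013 for Gas1. These limma fits held no series term, so each omission left the code series unbalanced between the groups. In DESeq2 with the series, the same omissions gave −0.12 to 0.10 for Gli1, −0.12 to 0.041 for Sufu and −0.027 to 0.083 for Boc. They gave −0.34 to −0.011 for Gli2, −0.20 to −0.0069 for Smo and −0.27 to −0.12 for Gas1, without a change of sign. The estimates without Ko replicate 3 and without Wt replicate 3 rest on the DM22 libraries alone, so they repeat that fit.

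Limma called 0 genes, 2 in the DM22 libraries and 0 to 1 with 1 library left out (1, Yap1, without Ko replicate 3). DESeq2 called 72 without a term, 170 with the replicate block, 299 with the series and 256 in DM22. Members called were 0 in limma, and 1 in DESeq2 with the replicate block, with the series and in DM22. Of the other Hedgehog genes 0 were called in limma, and 2, 1 and 2 in these 3 fits. In DESeq2 with the series, leaving out 1 library gave 85 to 496 genes and 0 to 1 members (0 without Ko replicate 2 or Wt replicate 3). The block changed no other member's call. Pseudocounts of 0.5 and 5, no filter and a filter of 50 changed no call. Each of the 9 members had 556 or more normalized counts in every library. Depth ran from 15405490 to 15572640 reads in the DM24 libraries and from 22836259 to 25260431 in the DM22 libraries, and cannot be told apart from the code series. Shh, at 0 reads in 3 libraries, was near the limit of detection.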
